A study of Mus musculus with 5 samples.

Results

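The Ms4a genes encode small proteins that cross the membrane 4 times, and they lie side by side in a cluster on mouse chromosome 19. Here 8 of them were followed across the cell types of the bone marrow: Ms4a1, Ms4a2, Ms4a3, Ms4a4b, Ms4a4c, Ms4a6b, Ms4a6c and Ms4a7. They are 8 of the 19 Ms4a genes and of the 28692 genes in the files. They were listed by name, with earlier results of these data known. The study injected 5 non-irradiated C57BL/6J mice, 8 weeks old, with 1000 BCR-ABL1 pre-B acute lymphoblastic leukaemia cells through the tail vein and took the marrow of 1 mouse straight after injection (day 0) and of 1 mouse each at 3, 6, 9 and 12 days. The day 0 mouse also received the cells, so no library comes from an uninjected animal. Flushed marrow and enzyme-digested bone were pooled, and red blood cells were lysed. The cells were then frozen, sent away for sequencing and profiled with droplet-based single-cell RNA sequencing that reads the 3' ends of transcripts. Since each day is a single mouse, differences between days and differences between mice cannot be told apart, and no test between days was possible.

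The members of the family mark different branches of blood formation. Ms4a1 encodes CD20, the B cell surface protein targeted by therapeutic antibodies, and Ms4a2 encodes the beta chain of the high-affinity IgE receptor of basophils and mast cells. Ms4a3 was described as a regulator of the cell cycle in myeloid progenitors, Ms4a4b is known from T cells, and Ms4a7 from macrophages. Ms4a4c, Ms4a6b and Ms4a6c belong to subfamilies that have expanded in the mouse and are less well characterised.

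A total of 32135 barcodes held at least 500 unique molecular identifiers (UMIs, each a distinct captured transcript), between 5474 and 7604 per library with a median of 2874 to 3786 UMIs. Cells were clustered without any Ms4a gene, Tmem176 gene or known partner, and 45 of 54 clusters were named from marker lists as 17 classes, each written here as "like" a type. Pairs of libraries shared 44 to 73 cell barcodes, where 43.6 to 68.9 would coincide if each library drew its barcodes evenly from the whole list. A cluster of 1261 cells led by mitochondrial genes stayed unnamed. Clusters of 130 pro/pre-B-like and 147 neutrophil-like cells, both led by Myl10, held 129 and 107 cells from day 3, so the day 3 library stood apart there. Droplets with at most 100 UMIs, which hold mostly free RNA, carried between 0.26 counts per 1000000 UMIs (CPM) for Ms4a2 and 286 CPM for Ms4a6c. Levels below are CPM of the summed UMIs of a class in a library, the unit used for every level, with 95% Poisson intervals that cover counting error only.

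In the GENCODE vM21 annotation of GRCm38, the 8 genes span 391 kb of chromosome 19, from position 11249675 to 11640851, and 13 of the 19 Ms4a genes lie in that interval. Ms4a1 (chr19:11249675-11266241) and Ms4a7 (chr19:11321039-11336146) lie on the minus strand at the left. Ms4a4c (chr19:11404770-11427246), Ms4a4b (chr19:11443553-11467055), Ms4a6c (chr19:11469366-11482192) and Ms4a6b (chr19:11516512-11531256) follow on the plus strand. Ms4a2 (chr19:11615523-11623719) and Ms4a3 (chr19:11629496-11640851) close the row on the minus strand. Because the reads come from transcript ends, close copies could share them. Of the windows of 90 bases within the last 500 bases of each annotated transcript, 1.64% of those of Ms4a4b and 2.83% of those of Ms4a4c occurred in the other gene, 0.852% of those of Ms4a6c occurred elsewhere, and none of the other 5 members did.

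The paralogues of each subfamily also share stretches of bases upstream of their start sites. The windows below are shown because their genes part company between cell types in the results that follow. RefSeq (GRCm38.p6) start sites, 8 in all, were found for 7 of the 8 genes. The windows of Ms4a4c and Ms4a6b lie inside the GENCODE spans of these genes given above, downstream of the start of each span. The 250 bases before the start of Ms4a4b (chr19:11443308-11443557, plus strand) and Ms4a4c (chr19:11407411-11407660, plus strand) were 68.8% identical in a global alignment, with the longest stretch free of differences, 20 bases, in capitals:
Ms4a4b: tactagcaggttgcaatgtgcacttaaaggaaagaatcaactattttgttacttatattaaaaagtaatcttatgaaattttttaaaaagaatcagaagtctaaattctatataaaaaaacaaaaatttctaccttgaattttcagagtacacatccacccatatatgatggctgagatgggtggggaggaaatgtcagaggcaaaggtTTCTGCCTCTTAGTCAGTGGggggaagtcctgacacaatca
Ms4a4c: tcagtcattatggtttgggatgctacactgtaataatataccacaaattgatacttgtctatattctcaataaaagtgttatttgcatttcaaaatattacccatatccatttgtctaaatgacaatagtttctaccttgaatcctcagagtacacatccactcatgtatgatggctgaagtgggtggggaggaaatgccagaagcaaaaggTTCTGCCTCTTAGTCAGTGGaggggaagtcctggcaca
Those of Ms4a6b (chr19:11518309-11518558, plus strand) and Ms4a6c (chr19:11469118-11469367, plus strand) were 45.8% identical, but shared an unbroken stretch of 48 bases, in capitals:
Ms4a6b: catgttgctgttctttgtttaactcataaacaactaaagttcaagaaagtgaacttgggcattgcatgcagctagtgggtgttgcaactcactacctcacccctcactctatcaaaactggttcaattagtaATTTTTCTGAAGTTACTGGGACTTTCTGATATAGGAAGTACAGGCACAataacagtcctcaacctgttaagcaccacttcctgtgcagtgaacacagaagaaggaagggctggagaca
Ms4a6c: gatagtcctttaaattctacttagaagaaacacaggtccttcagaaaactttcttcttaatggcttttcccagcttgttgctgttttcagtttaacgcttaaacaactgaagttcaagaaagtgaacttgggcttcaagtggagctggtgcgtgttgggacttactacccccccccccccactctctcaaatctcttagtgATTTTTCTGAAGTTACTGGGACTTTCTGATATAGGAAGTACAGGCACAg
That stretch begins 118 bases before the start of Ms4a6b and 49 bases before that of Ms4a6c. Windows of members from different subfamilies were between 44.3% and 50% identical in the 5 other pairs aligned. The letters AGGAAGT, an ETS-type motif searched on both strands, occurred 2 times before Ms4a6b and 1 time before Ms4a6c. A copy before each gene lies within the shared stretch. The letters were present in 7.69% of 32851 mouse promoters of the same length. The window of Ms4a2 (chr19:11623720-11623969, minus strand) held the GATA-type letters AGATAA, or their reverse complement, at 3 places marked in capitals:
Ms4a2: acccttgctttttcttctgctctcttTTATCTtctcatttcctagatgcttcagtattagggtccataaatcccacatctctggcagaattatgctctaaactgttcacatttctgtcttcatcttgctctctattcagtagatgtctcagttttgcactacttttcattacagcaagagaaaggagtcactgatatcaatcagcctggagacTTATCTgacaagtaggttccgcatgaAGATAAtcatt
AGATAA occurred in 9.99% of all promoters on either strand, and in no other window of the members. An interferon-response motif, GAAA followed after 2 bases by GAAA (2.98% of all promoters), TTGCNNAA of C/EBP type (9.56%) and TTCNNNGAA of GAS type (7.02%) were in none of the 7 windows. A match or its absence describes these letters in this window only.

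The members differed in the cell class of their highest level. Ms4a1 was highest in the B-like class, Ms4a2 in basophil- or mast-like cells and Ms4a3 in cells like granulocyte-monocyte progenitors (GMP). Ms4a4b was shared by T- and NK-like cells, Ms4a6b by monocyte- and T-like cells, and Ms4a4c and Ms4a6c were highest in monocyte-like cells. Ms4a7 was highest in macrophage-like cells. In all 5 libraries, 10 classes held at least 20 cells. Over these, Ms4a1, Ms4a3, Ms4a4c and Ms4a6c had the same highest class in every library, 4 of 8 members, against 23.4% of the 11409 genes tested. The members were not a blind choice, so these shares are a description. The classes of Ms4a2 and Ms4a7 were too small to be among the 10.

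**Figure D1:**
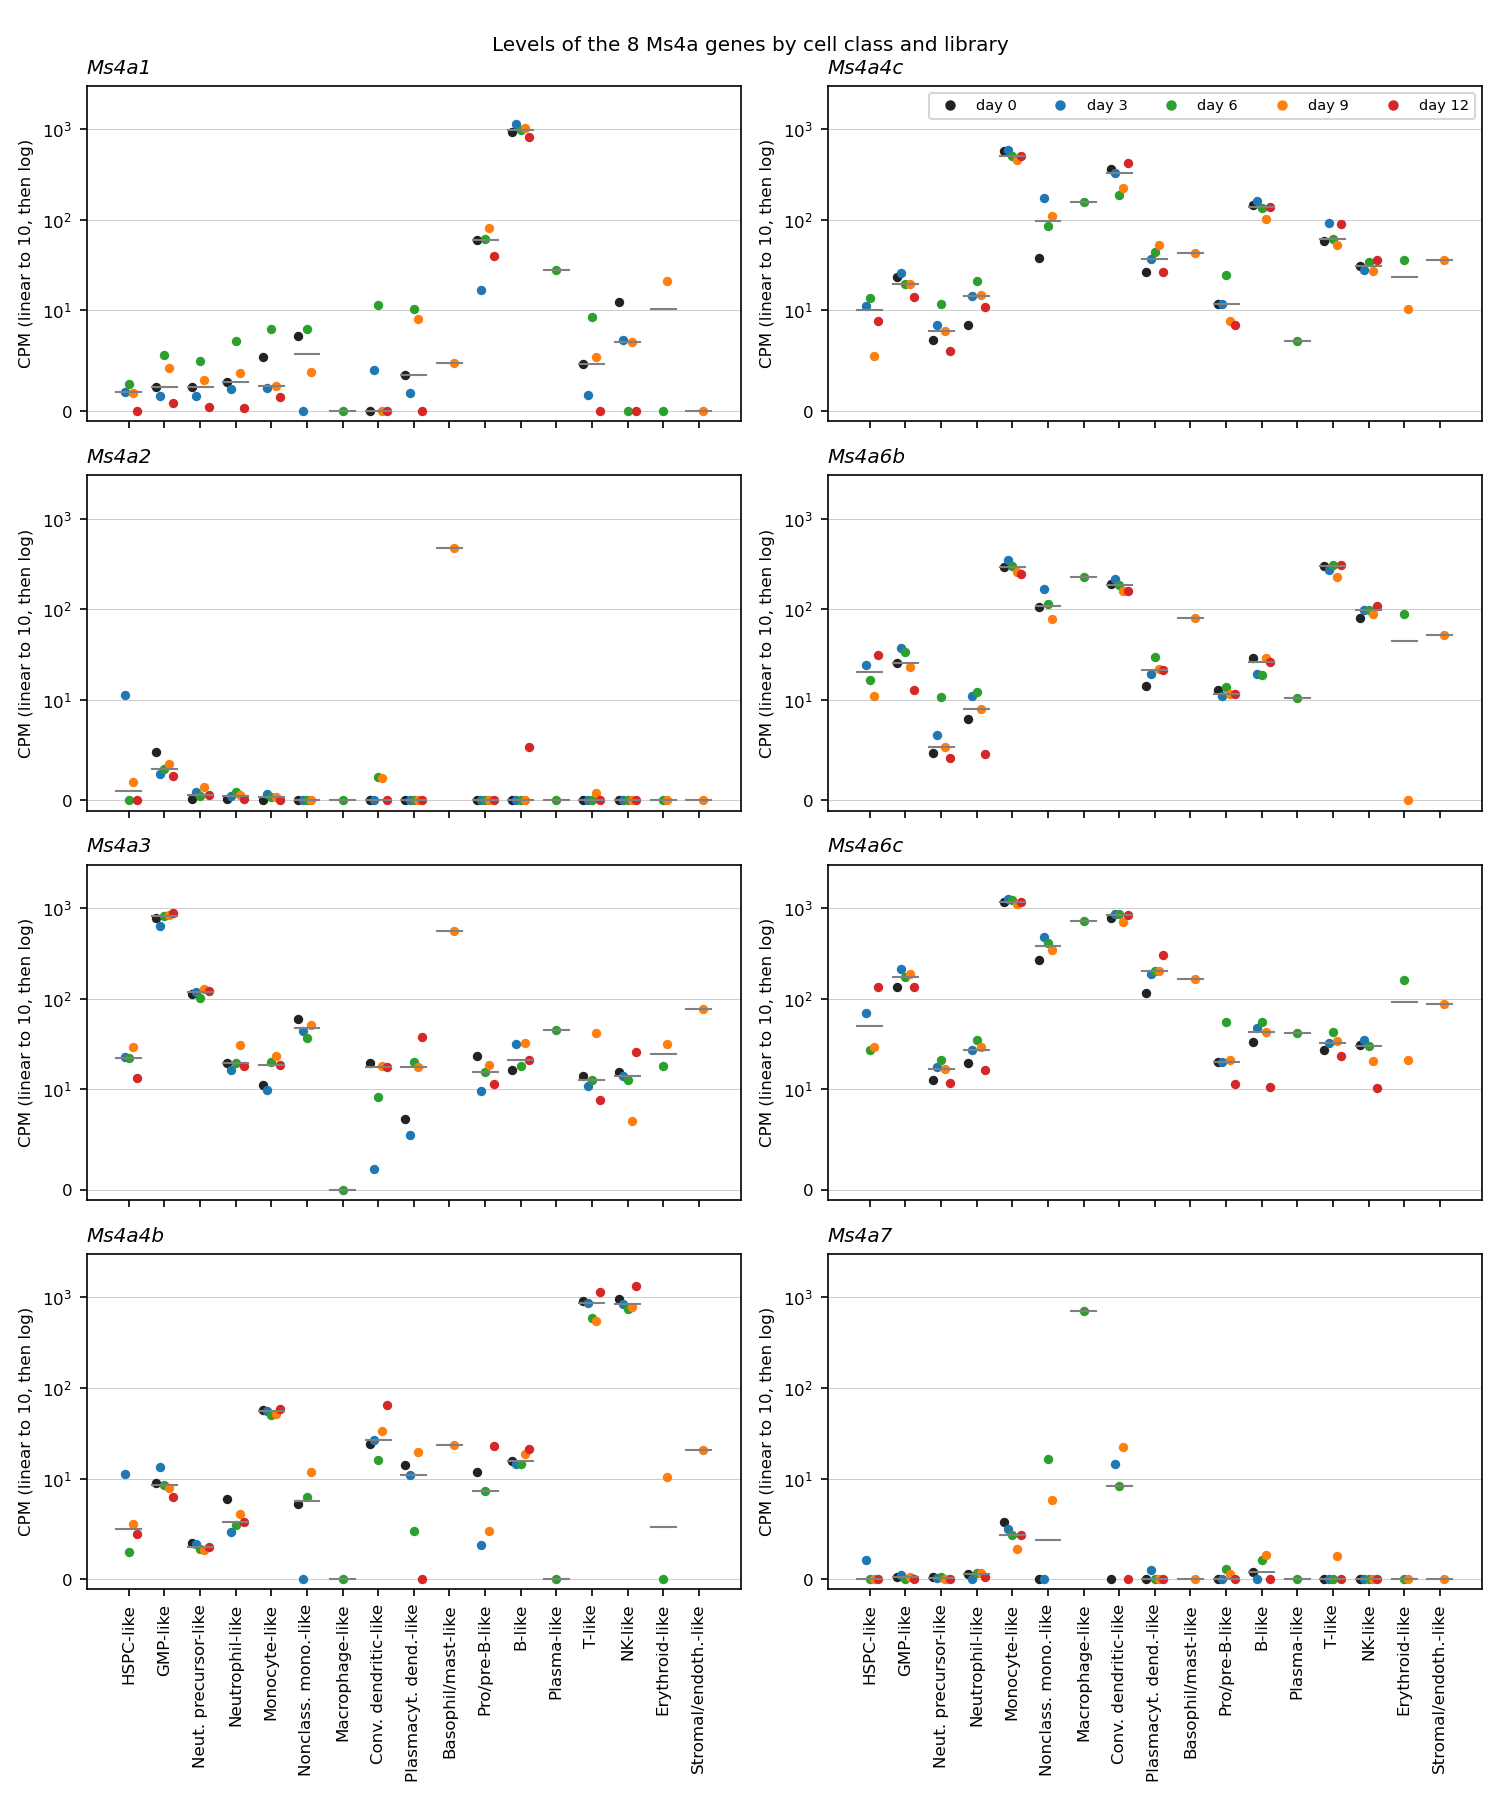
Level of each gene (CPM, linear to 10 and logarithmic above) in 17 cell classes. Each point is 1 library with at least 20 cells of the class, coloured by day, and grey lines are medians. Ms4a1 reaches 830 to 1135 in the B-like class and at most 81.4 in the pro/pre-B-like class, while Ms4a6c is above 700 in monocyte- and conventional dendritic-like cells.

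Ms4a1 was higher in the B-like than in the pro/pre-B-like class. Its level in the B-like class was 932 on day 0, 1135 on day 3, 989 on day 6, 1024 on day 9 and 830 on day 12 (982 ± 113, SD, n = 5 mice). In the pro/pre-B-like class it was 60.4, 16.7, 61.6, 81.4 and 40.1 CPM on the same days, so the groups did not overlap. The injected leukaemia cells are of pre-B type and were not told apart here. Whether the pro/pre-B-like class holds any was not tested. The difference between the classes was 3.98 on the log2(CPM + 1) scale (median over mice; range 3.64 to 6.00) and had the same sign in 5 of 5 mice. For each member the classes compared were the highest and second highest by the same values, so the direction is largely set by that choice. With 5 mice the exact two-sided sign-flip test cannot give less than p = 0.0625, which was the value here (Benjamini-Hochberg adjusted over the 8 members, 0.1). A UMI of Ms4a1 was seen in 68.6% to 77.7% of B-like cells, at a median of 1308 to 1874 UMIs a cell. T-like cells, which should lack CD20, gave 0% to 3.14% at 1936 to 2878 UMIs. After every cell was thinned to 1000 UMIs these shares were 54.2% to 61.0% and 0% to 0.893%.

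Within the B lineage the level differed between clusters. A pro-B-like cluster led by Vpreb1 and Igll1, which encode the surrogate light chain, held 8.54 CPM over all libraries, and a cycling pre-B-like cluster led by Myl4 and Vpreb3 held 8.13 CPM. The cluster led by Ebf1 and Dnajc7 held 195 to 362 CPM in the 5 mice, with a UMI in 12.4% to 22.7% of its cells. B-like cells led by Ighd, the IgD heavy chain of naive mature B cells, held 638 to 858 CPM. They lay above the Ebf1-led cluster in 5 of 5 mice, by 3.24-fold (median, range 1.76 to 3.85). The highest level, 1606 to 1937 CPM, was in B-like cells led by Ly6d and Iglc2, a surface protein and a lambda light chain. These lay above the Ighd-led cells in 4 of the 4 mice with at least 20 cells of each, by 2.29-fold (2.18 to 2.52). A B-like cluster led by Cd74, Scd1 and Ccr7 held 428 to 444 CPM, and 36 plasma-like cells, which secrete antibody, held 34.6 CPM (20.5 to 54.7, from 18 counts). Free RNA held 9.46 to 76.4 CPM of Ms4a1, a range that holds the plasma-like level and most pro/pre-B-like levels. The clusters were built from other genes of the same cells, so these are descriptions.

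**Figure D2:**
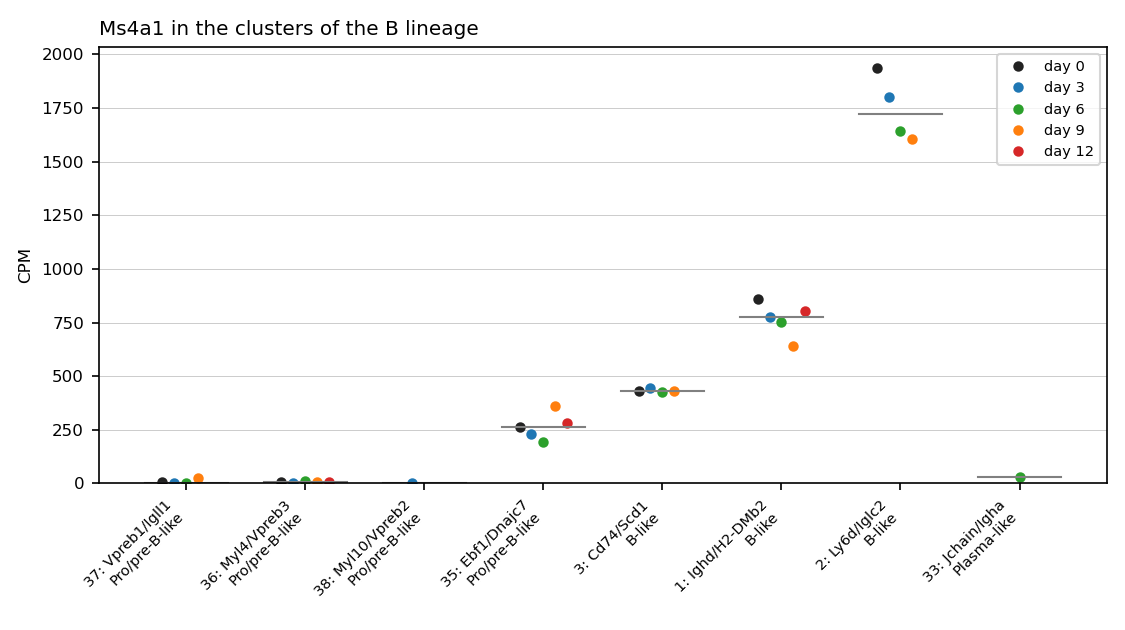
Level of Ms4a1 (CPM) in clusters of the B lineage, each named by its number, its leading genes and its class. Points are libraries with at least 20 cells, coloured by day, and grey lines are medians. The level is under 25 in the Vpreb1-, Myl4- and Myl10-led clusters, between 195 and 362 in the Ebf1-led cluster and highest in the Ly6d-led cluster.

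The pro/pre-B-like level of day 3, 16.7 CPM, was 0.277-fold that of day 0 (95% interval for counting error 0.195 to 0.392). On that day 11.8% of the 9127 genes tested in the class were at least 2-fold lower. The Myl10-led cluster accounted for 129 of 340 cells of the class on day 3, at a median of 19774 UMIs a cell, and 1 such cell was found in the other libraries. Without that cluster the day 3 level was 45.8 CPM against 60.8 CPM on day 0. Ms4a1 itself was at 4.16 CPM in that cluster.

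Ms4a2 was concentrated in a small class. Of its 421 UMIs in cells, 259 came from the 52 basophil- or mast-like cells, a cluster led by Prss34 and Mcpt8, which encode proteases of their granules. The level was 462 on day 0, 916 on day 3, 789 on day 6, 469 on day 9 and 525 CPM on day 12, from 3, 9, 12, 24 and 4 cells. The values of days 0 and 12 rest on 3 and 5 counts. The pooled level was 636 CPM (561 to 718). HSPC-like cells followed with 3.91 CPM pooled (7 counts, 6 of them from day 3) and GMP-like cells with 3.38 CPM (2.44 to 4.79 by mouse). Of the HSPC-like counts of day 3, 5 came from 5.88% of the 17 cells of 1 cluster. The HSPC- and GMP-like levels overlap the 0.26 to 4.13 CPM of free RNA, but the GMP-like class was not uniform. Its cluster led by Cpa3 and Cd34 held at least 14.7 CPM on days 3, 6 and 9, from 22, 20 and 28 cells. These levels rest on 5, 4 and 6 counts, and the interval of day 6 (4.01 to 37.7) reaches into free RNA. The counts came from 9.09%, 10% and 17.9% of the cells, a spread that the intervals do not cover. Day 0 gave 82.4 CPM from 8 cells, of which 25% held a UMI, and day 12 no count in 6 cells. The GMP-like clusters led by Ctsg and by Fcnb held 0 to 4.41 CPM. Neutrophil-like cells held 0.11 to 0.81 CPM. A UMI was seen in 91.7% of the 24 basophil- or mast-like cells of day 9, at 8922 UMIs a cell. The share was 0.14% of 2846 neutrophil-like cells at 2486 UMIs. Fcer1a, the alpha chain of the same IgE receptor, was at 432 CPM in the basophil- or mast-like class and reached 20 CPM in no other. The shared gamma chain Fcer1g and the kinases Lyn and Syk had their highest pooled levels elsewhere. Fcer1g was at 4396 CPM in macrophage-like cells (free RNA 2096 to 2531), Lyn at 180 CPM in monocyte-like cells (free RNA 88.7 to 131) and Syk at 170 CPM in B-like cells (free RNA 72.8 to 111).

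Ms4a3 was a gene of progenitors. GMP-like cells held 784 on day 0, 636 on day 3, 810 on day 6, 830 on day 9 and 892 CPM on day 12 (790 ± 95, SD, n = 5). Neutrophil precursor-like cells held 103 to 126 CPM in the same mice, 2.77 lower on the log2 scale (2.40 to 2.97) and lower in 5 of 5, again at the smallest p of 0.0625 (adjusted 0.1, exact sign-flip test). Neutrophil-like cells held 16.4 to 31.1 CPM. Basophil- or mast-like cells also carried the gene, at 501 CPM over the 52 cells (435 to 575, from 204 counts) and 559 CPM on day 9. HSPC-like cells, which resemble stem and early progenitor cells, held 13.4 to 29.2 CPM in the 4 libraries with at least 20 of them.

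Levels also differed between clusters of the granulocyte branch. The GMP-like cluster led by Ctsg and Mpo, granule enzymes of early myeloid cells, held 715 to 1086 CPM, and the GMP-like cluster led by Fcnb and Elane held 449 to 740 CPM. The former was higher in 5 of 5 mice, by 1.44-fold (1.17 to 2.26). Precursor-like cells led by Chil3 and Hmgn2 held 158 to 183 CPM, and those led by Ltf and Ly6g, which encode a granule protein and a surface protein of later neutrophils, held 42.7 to 60.1 CPM. Each step down held in 5 of 5 mice, with 3.91-fold (2.84 to 4.05) and then 3.10-fold (2.63 to 3.96) between neighbours. Cdkn3, a phosphatase known to bind Ms4a3, was at 52.2 CPM in GMP-like and 79.8 CPM in neutrophil precursor-like cells. Cdk2, the cell cycle kinase it acts on, was at 48.9 and 41.9 CPM. For these partners free RNA held 39.4 to 52.0 CPM of Cdkn3 and 36.8 to 50.8 CPM of Cdk2. The latter range holds both Cdk2 levels. Free RNA held 118 to 182 CPM of Ms4a3, a range that holds the level of the Chil3-led cluster. The levels of the Ltf-led cluster, of neutrophil- and HSPC-like cells and of lymphoid classes, such as 8.93 to 41.9 CPM in T-like cells, lie below it.

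Ms4a6c ran in a different direction from the same progenitors. It was at 222 to 346 CPM in the Ctsg-led GMP-like cluster and at 8.19 to 25.6 CPM in the Fcnb-led cluster, 23.7-fold apart (11.6 to 29.2) in 5 of 5 mice. In the GMP-like class as a whole it was at 134, 213, 173, 185 and 133 CPM. At 1000 UMIs a cell, 8.73% to 12.3% of GMP-like cells had a UMI of Ms4a6c and 36.6% to 45.8% one of Ms4a3. Cells with both made up 2.02% to 2.70%, against a product of the 2 shares of 4% to 5.18%, so they were 0.462 to 0.638 times as frequent as that product in 5 of 5 libraries. Within the Ctsg-led cluster alone the ratio was 0.411 to 0.680. The level of the Ctsg-led cluster overlaps the 235 to 286 CPM of Ms4a6c in free RNA and that of the whole class lies below it, with a free RNA share of 17.9% to 31.9% estimated in GMP-like cells. Its part in the detection of Ms4a6c was not tested.

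The cells of these sets differed in other genes too. GMP-like cells with Ms4a6c and without Ms4a3 numbered 14 to 33 per mouse, and those with Ms4a3 and without Ms4a6c 64 to 133. Of the 9 neutrophil precursor markers, 8 were lower in the Ms4a6c set in 5 of 5 mice, against 10.3% of the 640 genes with at least 100 counts. Camp, an antimicrobial granule peptide, was at 2125 to 16357 CPM against 26344 to 31786 CPM, and Cebpe, a transcription factor of granulocyte maturation, at 0 to 90.9 against 275 to 562 CPM. Tuba1b, a tubulin, was higher. Of the 11 monocyte markers, S100a4 and F13a1 were higher in 5 of 5 mice, beside 26.9% of the same 640 genes. S100a4, a calcium-binding protein, was at 222 to 571 CPM against 0 to 67.7 CPM, and F13a1, a clotting factor subunit of monocytes, at 107 to 571 against 16.7 to 75.2 CPM. Cybb, a subunit of the phagocyte oxidase, was lower in 5 of 5, and 6 did not keep 1 direction. Among 9 GMP markers, Cd34 was higher and Elane and Prtn3 were lower in 5 of 5 mice. Within the Ctsg-led cluster alone, 4 of the 9 neutrophil precursor markers and 4 of the 9 GMP markers (Ctsg, Elane, Mpo and Prtn3) were lower in 5 of 5 mice, beside 9.43% of 435 genes. There, 2 of the 11 monocyte markers, again S100a4 and F13a1, were higher, beside 14.7% of the same genes. These sets were chosen on the detection of 2 genes in sparse counts, so the values are a description.

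**Figure D3:**
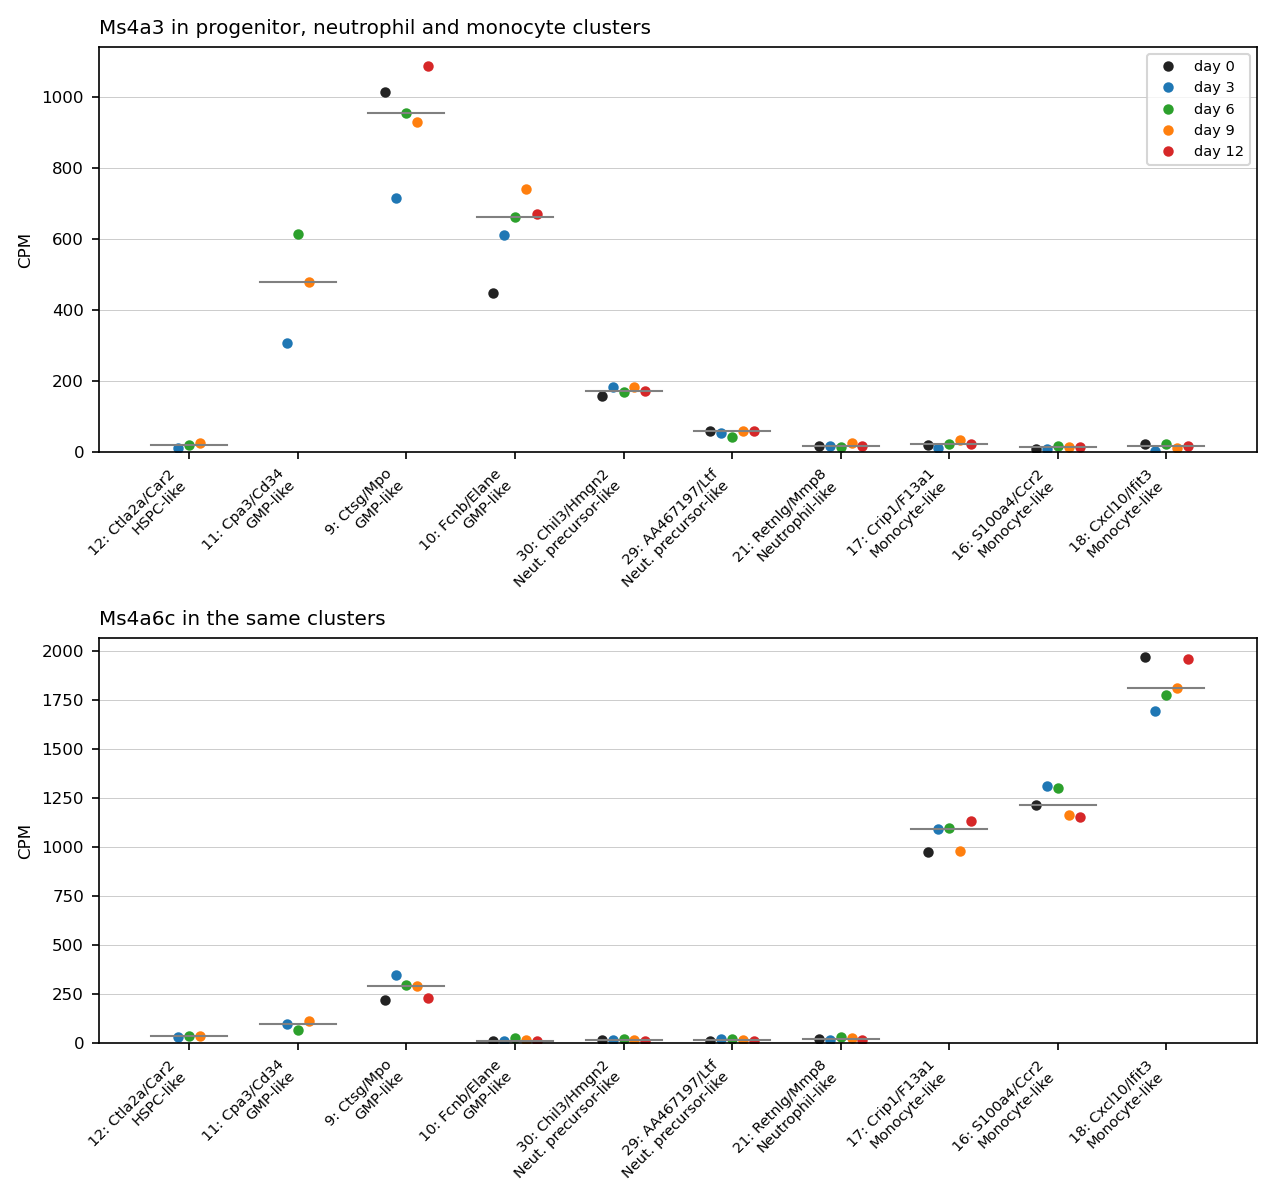
Levels (CPM) of Ms4a3 and Ms4a6c in clusters of progenitor-, neutrophil- and monocyte-like cells, named by number, leading genes and class. Points are libraries with at least 20 cells, coloured by day, and grey lines are medians. Ms4a3 is highest in the Ctsg-led GMP-like cluster (715 to 1086) and falls along the neutrophil branch, while Ms4a6c is at 222 to 346 in that cluster and above 950 in the monocyte-like clusters.

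Monocyte-like cells carried more transcripts of the 8 genes than any other named class, 2077 CPM in all. Of these, 57.0% were from Ms4a6c, 25.2% from Ms4a4c and 14.0% from Ms4a6b. Ms4a6c was at 1176, 1246, 1229, 1096 and 1171 CPM on days 0 to 12 (1184 ± 58.9, SD, n = 5). Conventional dendritic-like cells, which present antigen, held 705 to 851 CPM and did not overlap, 0.55 lower on the log2 scale (0.48 to 0.64; p = 0.0625 by the exact sign-flip test, adjusted 0.1). Nonclassical monocyte-like cells, the patrolling type, held 269 to 478 CPM in 4 libraries. Those 204 cells formed 2 clusters, and in the one with fewer UMIs, a median of 2402 against 6971 a cell, the pooled level was 666 against 228 CPM. In the cluster of 228 CPM, 46.2% of barcodes were among the highest 5% of doublet scores. A UMI of Ms4a6c was seen in 93.1% to 98.4% of monocyte-like cells, at a median of 5535 to 8029 UMIs. In neutrophil-like cells at 2299 to 2762 UMIs the share was 4.59% to 9.20%. Thinned to 1000 UMIs, the shares were 63.9% to 69.9% and 1.81% to 3.71%.

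Ms4a4c was at 572, 588, 512, 455 and 509 CPM in monocyte-like cells (527 ± 53.7, SD, n = 5). Conventional dendritic-like cells held 366, 328, 188, 224 and 423 CPM, lower within each of the 5 mice by 0.84 on the log2 scale (0.27 to 1.44; exact sign-flip p = 0.0625, adjusted 0.1). B-like cells were next with 102 to 162 CPM, and a UMI was found in 17.1% to 26.1% of them against 2.35% to 5.83% of the deeper neutrophil-like cells. None of those B-like levels lies above the 108 to 174 CPM of free RNA, and the lowest lies below that range. The free RNA share estimated in B-like cells was 21.1% to 35.4%, and its part in these levels was not tested. T-like cells held 52.6 to 91.2 CPM.

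Ms4a6b was shared by monocyte- and T-like cells, whose levels overlapped. Monocyte-like cells held 296, 346, 303, 258 and 242 CPM (289 ± 41.0, SD, n = 5), and T-like cells 300, 272, 309, 226 and 307 CPM (283 ± 35.2, SD, n = 5). The T-like class was higher in 3 of 5 mice, with a median difference of 0.022 on the log2 scale (-0.35 to 0.34) and p = 0.9375 by the exact sign-flip test (adjusted 0.9375). Conventional dendritic-like cells held 158 to 213 CPM, and NK-like cells 80.2 to 108 CPM, the latter under the highest free RNA level of 116 CPM. At 1000 UMIs a cell the gene was seen in 21.8% to 30.1% of the monocyte-like class, and the T-like share lay between 23% and 28%.

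All 3 monocyte genes were higher in a small cluster led by genes of the interferon response than in the largest monocyte-like cluster. This cluster of 143 monocyte-like cells was led by Cxcl10, Ifit3, Ifit1 and Isg15, and it held 20 to 37 cells in each mouse. Ms4a4c was at 1516 to 1725 CPM there, against 537 to 665 CPM in the largest monocyte-like cluster, led by S100a4 and Ccr2. The ratio was 2.74 (median over mice, 2.32 to 3.08). Ms4a6b was at 714 to 848 against 286 to 417 CPM, a ratio of 2.26 (1.90 to 2.58), and Ms4a6c at 1693 to 1970 against 1155 to 1315 CPM, a ratio of 1.55 (1.29 to 1.70). The groups did not overlap for these 3 genes, and the interferon-led cluster was higher in 5 of 5 mice for each. Ms4a4b, the paralogue of Ms4a4c, was at 45.2 to 126 against 45.5 to 60.0 CPM and was higher in 4 of 5. The same 3 genes were low in a neutrophil-like cluster led by Rsad2, Isg15 and Ifit1, with 855 cells. There Ms4a4c was at 3.72 to 16.6 CPM against 7.01 to 16.6 CPM in the Retnlg-led neutrophil-like cluster, higher in 2 of 5 mice. Ms4a6b and Ms4a6c were higher in 4 and 3 of 5, at levels of 35.4 CPM or less. Free RNA held at least 108 CPM of Ms4a4c, 72.6 CPM of Ms4a6b and 235 CPM of Ms4a6c. The neutrophil-like levels lie below these, so they cannot show whether the genes differ there. The difference between the monocyte- and neutrophil-like contrasts was not tested.

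**Figure D4:**
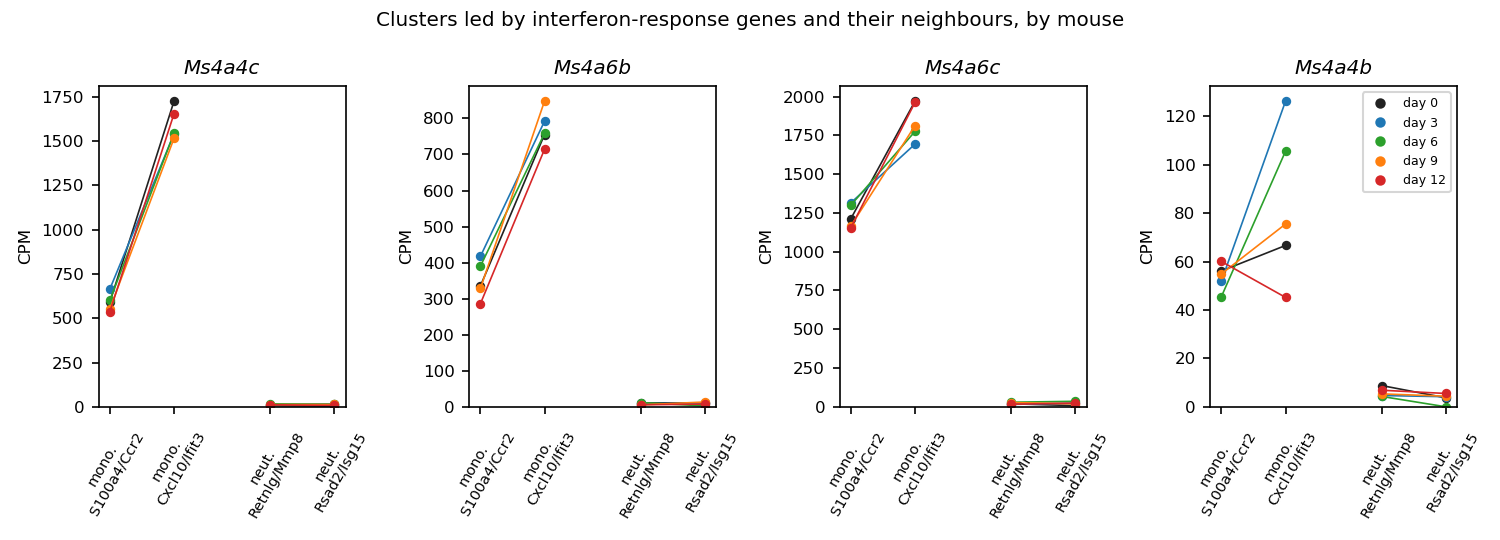
Levels (CPM) of 4 genes in clusters led by interferon-response genes (Cxcl10/Ifit3 in monocyte-like and Rsad2/Isg15 in neutrophil-like cells) beside the S100a4-led and Retnlg-led clusters of the same class. Lines join the clusters of 1 mouse, coloured by day. Ms4a4c goes from 537 to 665 to 1516 to 1725 in monocyte-like cells and stays at 16.6 or less in neutrophil-like cells.

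In monocyte-like cells thinned to 1000 UMIs, Ms4a4c and Ms4a6c were seen together in 24% to 31.2% of cells, 1.05 to 1.12 times the product of their shares. For Ms4a4c and Ms4a6b the ratio was 1.14 to 1.36 and for Ms4a6b and Ms4a6c 1.07 to 1.10, above 1 in 5 of 5 libraries for each pair. Over the 64 sums of a class in a library with at least 20 cells, Pearson's r between log2(CPM + 1) values was 0.78 for Ms4a4c with Ms4a6b, 0.73 for Ms4a4c with Ms4a6c and 0.60 for Ms4a6b with Ms4a6c. The points share libraries and classes, so these are descriptions.

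Ms4a6c was also found at lower levels outside the monocytes. Plasmacytoid dendritic-like cells, which produce type I interferon, held 115, 186, 199, 203 and 303 CPM from day 0 to day 12. The day 12 level rested on 37 cells and 57 counts and was 2.64-fold that of day 0 (1.82 to 3.83), where 3.86% of the 4303 genes tested in that class were at least 2-fold higher. The day 0 and day 12 intervals did not overlap. At 1000 UMIs the share of cells with a UMI was 6.42% on day 0 and 21.2% on day 12. The day 0 to day 9 levels lie below the 235 to 286 CPM of free RNA, and the share of free RNA estimated from neutrophil genes was 20.2% on day 0 and 15.3% on day 12.

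Ms4a4b had nearly the same level in T- and NK-like cells. The T-like class held 907, 877, 594, 554 and 1150 CPM from day 0 to day 12, and the NK-like class 959, 845, 742, 777 and 1321 CPM. NK-like cells were higher in 4 of 5 mice, by 0.20 on the log2 scale (median; the T-like minus NK-like difference ranged from -0.49 to 0.053), with p = 0.125 by the exact sign-flip test (adjusted 0.167). The median difference turned to 0.038 in favour of T-like cells when free RNA was subtracted. Monocyte-like cells were next with 50.4 to 59.3 CPM, and B-like cells held 14.3 to 21.1 CPM. A UMI was seen in 70.9% to 80.1% of T-like cells, at 1936 to 2878 UMIs, and in 2.84% to 4.05% of B-like cells at 1308 to 1874. Thinned to 1000 UMIs, these shares were 42.9% to 62.6% and 1.14% to 2.35%.

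Ms4a4b and Ms4a6b differed among T-like clusters. Ms4a4b was at 745 to 1201 CPM in the cluster led by Cd8b1 and Dapl1, where Cd8b1 is a coreceptor chain of cytotoxic T cells, and at 736 to 1338 CPM in that led by Ccl5. It was at 284 to 488 CPM in a cluster led by Vps37b and Ikzf2 and at 335 to 548 CPM in one led by Ikzf2 and Tnfrsf4. Ms4a6b was at 330 to 414 CPM in the Cd8b1-led cluster and at 93.8 to 181 CPM in the Vps37b-led cluster. In NK-like cells, Ms4a4b was at 872 to 1538 CPM in the larger cluster, led by Gzma, a killer cell protease, and at 362 CPM over the 93 cells of the other. Tnfrsf18, the GITR receptor known to associate with Ms4a4b, reached 20 CPM only in NK-like (131 CPM) and T-like cells (107 CPM) among the 17 classes.

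Ms4a4b was highest on day 12 and lowest on days 6 and 9 in both classes. In T-like cells day 9 was 0.611-fold and day 12 1.27-fold of day 0, and in NK-like cells day 6 was 0.773-fold and day 12 1.38-fold. The same order of day 12 above and days 6 and 9 below held in the Cd8b1-led cluster (745 and 812 against 1201 CPM) and in the Ccl5-led cluster (736 and 760 against 1338 CPM). The free RNA estimated from neutrophil genes in T-like cells was 34.2% and 39.5% on days 6 and 9 and 22.5% to 29.7% on the other days. Its part in the result was not tested. A T-like cluster of 155 cells with 72.9% of its barcodes among the highest 5% of doublet scores held 315 CPM. Without it the T-like levels were 996, 974, 677, 684 and 1222 CPM, with days 6 and 9 still lowest.

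Ms4a7 had its highest level in a rare class but was not confined to it. Of its 266 UMIs in cells, 45 came from the 42 macrophage-like cells, at 380 CPM (277 to 509). These cells were led by the complement genes C1qa, C1qb and C1qc, and 40% of those of day 6 held a UMI. The 3083 monocyte-like cells held 102 of the UMIs and unnamed cells 54. Day 6, with 20 cells, held 703 CPM (477 to 997), day 3 634 CPM from 5 cells, day 0 282 CPM from 3 cells and day 9 118 CPM from 14 cells. No such cell was found on day 12. The median UMI count of these cells was 1036. Ms4a6c was at the same level in this class, 380 CPM over all days and 725 CPM on day 6, and Ms4a6b was at 227 CPM on day 6. Outside it, Ms4a7 was at 3.03 to 5.64 CPM in monocyte-like cells and 0 to 22.4 CPM in conventional dendritic-like cells. The level of free RNA was 1.02 to 4.82 CPM.

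Levels were also compared between days within a class. In 16 of 136 pairs of a member and a class, the lowest library lay above the highest free RNA level of that member, a limit set after the values were seen, and 11 of these pairs could be compared with day 0. Of 44 such comparisons none reached 2-fold, and the folds ran from 0.514 to 1.38. That limit tends to leave out a pair that is low on any day, so the absence of 2-fold differences is partly set by it. The lowest fold was Ms4a4c in conventional dendritic-like cells on day 6, at 188 against 366 CPM. On days 6 and 9 this pair passed 2-fold under 3 other settings, with 0.411- and 0.492-fold without the highest doublet scores, 0.322- and 0.426-fold as a mean over cells, and 0.188- and 0.430-fold after thinning. Over all pairs with at least 20 counts, 16 of 214 comparisons were at least 2-fold higher and 11 at least 2-fold lower, against 4.13% and 3.43% of all genes over the same classes and days. Among them, Ms4a4c in nonclassical monocyte-like cells was at 37.4 CPM (5 counts) on day 0 and 173 CPM on day 3, where 10.2% of genes in that class were at least 2-fold higher. Without the cluster in which 46.2% of barcodes had high doublet scores, the levels were 105 CPM (4 counts) and 216 CPM. These came from 19 cells on day 0, under the minimum of 20, and 24 cells on day 3. Ms4a6b in GMP-like cells was at 25.6 CPM on day 0 and 12.7 CPM on day 12, 0.499-fold (0.344 to 0.714), beside 1.74% of genes at least 2-fold lower in that class.

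**Figure D5:**
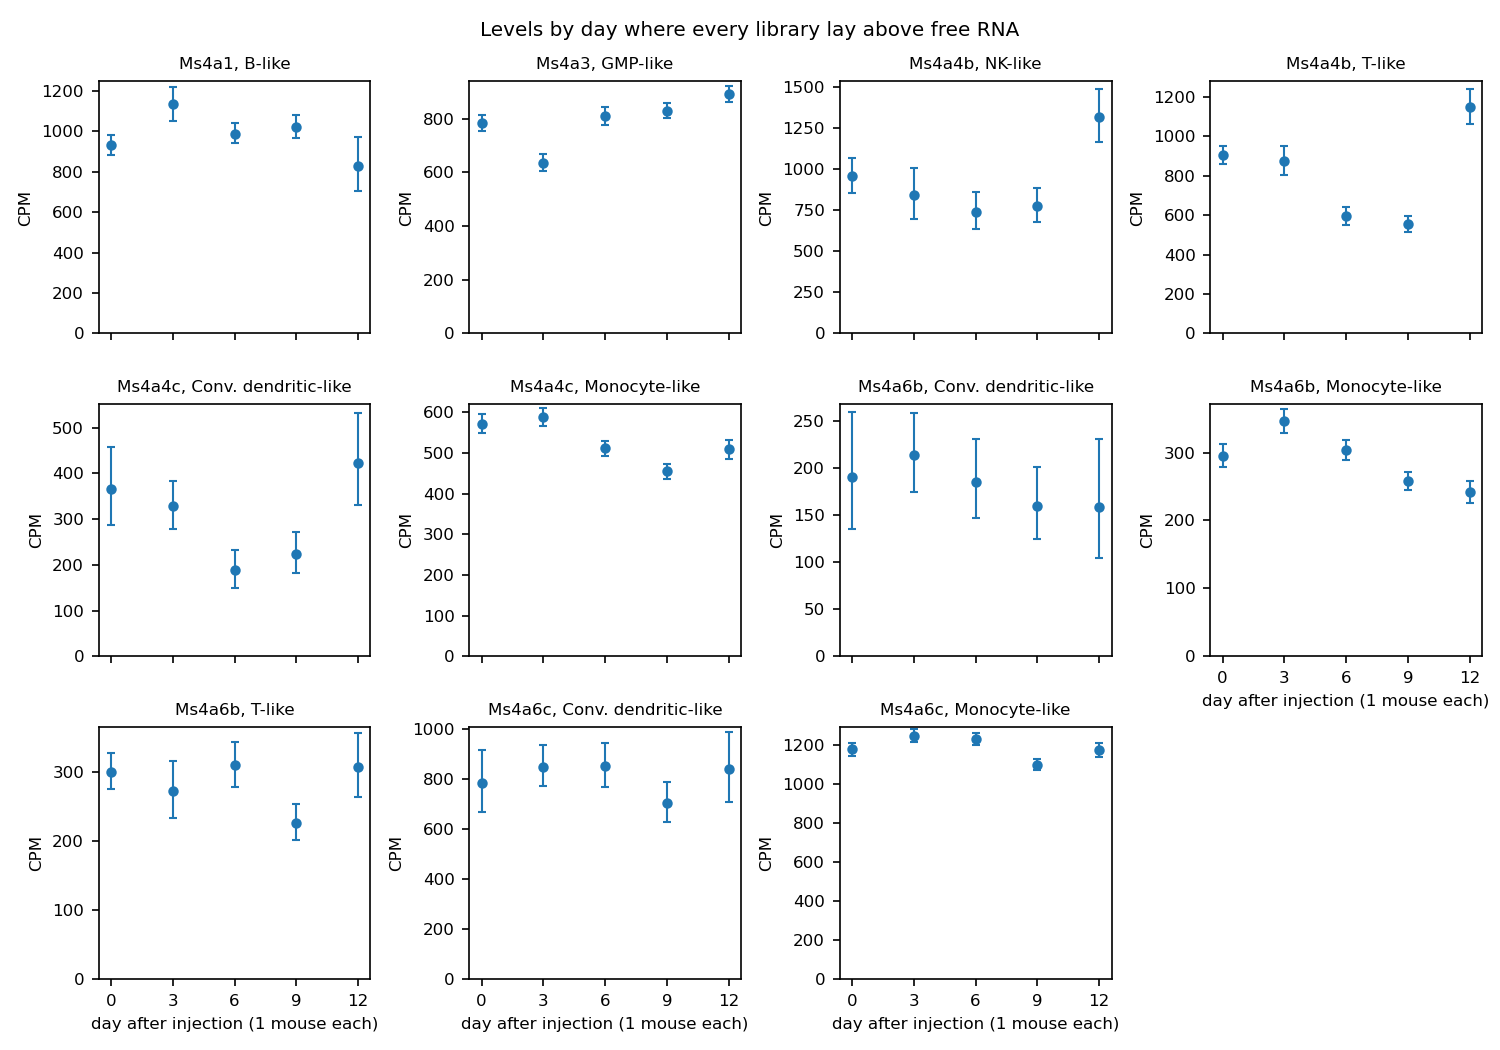
Level (CPM, with 95% Poisson intervals for counting error) by day after injection, 1 mouse each, for the 11 pairs of a gene and a class whose level lay above free RNA in all 5 libraries. Every axis starts at 0. As plotted the lowest ratio to day 0 is 0.514, for Ms4a4c in conventional dendritic-like cells on day 6, which passed 2-fold under 3 other settings.

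The genes nearest to each member in level over the 64 sums were named by Pearson's r. Ms4a1 was nearest to Fcmr, the IgM Fc receptor (r = 0.909), then Cd79a, a chain of the B cell receptor complex, 2010309G21Rik, Klhl14 and 4930426D05Rik. Ms4a2 was nearest to Fcer1a (0.860), then the mast cell protease Cpa3, Csrp3, the transcription factor Gata2 and 4930519L02Rik. Ms4a3 was nearest to Hsd17b1 (0.765), Fcnb, Far2, Rab44 and Elane. Ms4a4b was nearest to Skap1, an adaptor of T cell receptor signalling (0.871), Arl4d, Trbc1, Trdc and Sh2d1a. Ms4a4c was nearest to Naaa (0.841), the protease Ctss, Ctage5, S100a4 and Ifi30. Ms4a6b was nearest to Fam105a (0.872), Ahnak, Arl4c, Arl6ip5 and Gm9844. Ms4a6c was nearest to the lysosomal membrane gene Lamp1 (0.915), Anxa5, Ccdc109b, Cst3 and Ptpro. Ms4a7 was nearest to the receptor kinase Axl (0.752), C1qa, C1qb, Sirpb1a and Tbc1d9. Several of these, such as Cd79a, Fcnb, Ctss, Trbc1 and C1qa, were markers used to name the classes. Of these 40 genes, 11 remained with Spearman's rho and 14 with sums of at least 50 cells, and for Ms4a2 and Ms4a7 none of the 5 did under either.

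Of the 11 other Ms4a genes, 2 reached 20 CPM with at least 20 counts in a named class, and both did so only in monocyte-like cells. Ms4a6d was at 60.9 to 88.5 CPM and Ms4a8a at 49.5 to 72.3 CPM there. Ms4a4a held 103 UMIs in all cells and Ms4a4d 16, and the other 7 held 4 or fewer each. The related Tmem176a and Tmem176b were highest in macrophage-like cells, at 490 and 769 CPM, followed by conventional dendritic-like cells at 285 and 440 CPM, beside at most 35.1 and 55.3 CPM in free RNA. In B-like cells Cd40 and Btk, a costimulatory receptor and a kinase of B cell signalling, were at 68.6 and 60.0 CPM.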

How the data were processed

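Per the labels and the study's methods, the authors aligned reads of 10x Genomics 3' v2 libraries to mm10 with Cell Ranger and deposited raw UMI counts per gene and barcode, unfiltered. Barcodes with at least 500 UMIs were kept here. Cells were log-normalised and clustered with scanpy 1.11.5 and leidenalg 0.10.2 (899 variable genes, 30 components, 20 neighbours, resolution 1.5), without the Ms4a genes, Tmem176 genes or partners. Clusters that mixed progenitors, dendritic and mononuclear cells, or T and NK cells were clustered again at resolution 1.0, a step chosen after the clusters were seen. A cluster was named where at least 3 markers of a list were in 20% of its cells and 2-fold above the rest, unless markers of another type led it. Scrublet's automatic threshold marked 2.32% of cells on day 0 and at most 0.0341% in the other 4 libraries, so doublets were kept. Counts were summed per class and library and divided by the summed UMIs. Sums of under 20 cells enter no comparison between libraries except where this is stated, and their values are given with their cell numbers. The highest and second highest class of each member, ranked on the same values, were compared within mice with an exact two-sided sign-flip test. Day ratios have exact binomial intervals and no test, with a floor of 3 counts for zeros. Free RNA was measured in droplets of at most 100 UMIs. The functions were tested on simulated monocyte sums (day 12 against day 0, 9373 genes), where 98.0% to 100% of genes changed 3-fold or 5-fold passed 2-fold, and 1.68% of unchanged genes did. Named genes were the 8 members, the 5 nearest genes of each, and the fixed lists of family and partner genes. A marker of the monocyte list is not reported here. The members, gene lists and several limits were chosen with earlier results of these data known. Sequences came from RefSeq and GENCODE tables. The alternatives tried were other cell filters, thinning, scaling by edgeR 4.0.16, subtraction of free RNA, a lower resolution and leaving out each library.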

Additional observations from a re-analysis of the deposited data

Results flagged for a closer look

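Members were also found in clusters that had no name and so entered no comparison, at more than 2 times the highest free RNA level. Ms4a2 was at 77.2 CPM (54.1 to 107) in 38 unnamed cells led by Mcpt8, Prss34 and Cpa3, which also passed HSPC markers, against 4.13 CPM in free RNA. Of its 36 counts there, 22 came from 25% of the 8 cells of day 6, a spread that the interval does not cover. In this cluster 15.8% of barcodes were among the highest 5% of doublet scores. An unnamed cluster of 127 cells led by Cd209a and MHC class II genes held Ms4a4c at 669 CPM, Ms4a6b at 449 CPM and Ms4a6c at 1370 CPM. An unnamed cluster of 763 cells led by Cd14, Nr4a2 and Thbs1 held Ms4a6c at 1004 CPM, against 286 CPM in free RNA. Ms4a4b was at 763 CPM in 57 unnamed cells led by Gzma and Klre1. Another 42 unnamed cells led by Ccl5 and Gzma, with 66.7% of barcodes among the highest 5% of doublet scores, held Ms4a4b at 400.3 CPM and Ms4a6c at 717 CPM.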

How the results depend on the processing

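No paired analysis was possible because, between days, the labels give no shared replicate numbers and each day is 1 mouse. Classes and clusters were compared within mice. Of 226 recomputed values, 196 counted as the same. For a class difference this asked only for the same sign, not the same size. A level had to stay within the SD between mice, or within the Poisson interval where there was no SD. A count had to stay close to the main count. Leaving out the highest 5% of doublet scores moved Ms4a1 in B-like cells from 993 to 1124 CPM, and thinning moved Ms4a1 to 1109, Ms4a2 to 760 and Ms4a3 to 704 CPM. Subtracting free RNA, an estimate from neutrophil genes, moved Ms4a1 to 1441, Ms4a3 to 1002, Ms4a4c to 587 and Ms4a6c to 1338 CPM, and the lower resolution moved Ms4a1 to 834 CPM. At that resolution no basophil-, mast- or macrophage-like class was found. Leaving out each library gave 189 to 643 CPM for Ms4a7 and 571 to 815 CPM for Ms4a2. Without day 6 Ms4a7 was at 189 CPM and without day 9 at 643 CPM. The T-like minus monocyte-like difference of Ms4a6b turned from 0.022 to -0.034 with at least 1000 UMIs, -0.16 without high mitochondrial shares and -0.039 after thinning, and ranged from -0.084 to 0.024 without single libraries, below 0 without day 0, 6 or 12. That of Ms4a4b, T-like minus NK-like, turned from -0.20 to 0.038 when free RNA was subtracted. Without high mitochondrial shares 5164 cells were lost, 4 classes could be compared and 7 members, not Ms4a1, kept 1 highest class, beside 47.3% of all genes. Among pairs above free RNA, 2 comparisons passed 2-fold after leaving out doublet scores, 2 as means over cells and 2 after thinning, each time Ms4a4c in conventional dendritic-like cells on days 6 and 9 (0.411- and 0.492-fold, 0.322- and 0.426-fold, and 0.188- and 0.430-fold). The counts of comparisons past 2-fold were 9 and 2 after thinning and 35 and 29 without a count filter. Of the 40 nearest genes, 24 remained with log2(CPM + 10), 11 with Spearman's rho and 14 with at least 50 cells. With at least 3 cells a class, chosen after seeing the data, Ms4a2 joined the members with 1 highest class, 5 of 8 beside 13.1% of all genes. The causes were not tested. After thinning, Ms4a4c no longer kept 1 highest class. Depth limits Ms4a2 and Ms4a7, which rest on 259 and 45 counts in their classes.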
